A study of Mus musculus with 12 samples.

Results

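The Slc16 genes encode the monocarboxylate transporter family. The 9 members described here were followed through RNA sequencing of acutely injured mouse neurons: Slc16a1, Slc16a3, Slc16a6, Slc16a7, Slc16a9, Slc16a10, Slc16a11, Slc16a13 and Slc16a14. They were taken by symbol, 9 of the 22899 genes in the deposited count table. The list does not hold every Slc16 symbol of the table. The list was selected on family membership with results of these data in view, among them the level and log2 fold change of Slc16a9 after OGD; which other measured values guided it is not recorded. Fold changes and calls of the members therefore describe these libraries, and their adjusted p-values are not independent evidence. Because of that choice, no p-value is given for Slc16a9 in comparisons that use the OGD control libraries.

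Monocarboxylate transporters carry lactate, pyruvate and ketone bodies across the cell membrane together with protons, and cells that release lactate and cells that oxidise it use different members. In the brain, MCT1 (Slc16a1) is known from endothelium, glia and, at lower levels, neurons, MCT2 (Slc16a7) is the high-affinity carrier of neurons, and MCT4 (Slc16a3) is the export carrier of glycolytic astrocytes. Other family members move aromatic amino acids, thyroid hormone, carnitine or creatine, and several have no settled substrate.

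All libraries came from primary neurons of the C57Bl6 mouse strain, in 4 groups of 3. OGD neurons were deprived of oxygen and glucose, a culture model of ischaemia, and OGD control neurons were untreated. KA neurons received 100 µM kainic acid, an agonist of ionotropic glutamate receptors, in their medium, and KA control neurons were untreated. The labels give no length of exposure, no brain region and no culture age, and do not say that replicates came from separate cultures; a p-value here reflects the spread of these samples, which may be technical. Library totals ran between 12873444 and 21142267 counts, so that 1 count was worth 0.0429 to 0.0832 CPM (counts scaled to a common library size). The neuronal marker list summed to 6285 to 8907 CPM over the libraries, but Rbfox3 was too low to test and Syt1 averaged 0.57 to 1.21 CPM over the groups. A low value of a gene in this table is therefore not read as absence of its RNA.

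Promoter stretches are shown for 3 members whose values are described first or stand at an extreme: Slc16a1, Slc16a9 and Slc16a3. RefSeq promoter entries on GRCm38.p6 were found for 6 of the 9 members, and Slc16a6, Slc16a7 and Slc16a13 are only named. Capitals mark the motif matches. The first stretch is chr3:104638414-104638663 (plus strand), the second chr10:70245026-70245099 (plus strand) and the third chr11:120948817-120949052 (plus strand); the Slc16a9 and Slc16a3 stretches end where an annotated exon begins.
Slc16a1: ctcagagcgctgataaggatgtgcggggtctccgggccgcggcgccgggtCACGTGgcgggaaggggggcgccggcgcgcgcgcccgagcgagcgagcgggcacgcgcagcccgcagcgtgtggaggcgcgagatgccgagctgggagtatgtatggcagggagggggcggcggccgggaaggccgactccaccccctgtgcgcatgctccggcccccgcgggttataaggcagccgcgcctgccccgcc
Slc16a9: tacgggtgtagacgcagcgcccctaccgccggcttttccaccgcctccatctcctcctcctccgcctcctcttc
Slc16a3: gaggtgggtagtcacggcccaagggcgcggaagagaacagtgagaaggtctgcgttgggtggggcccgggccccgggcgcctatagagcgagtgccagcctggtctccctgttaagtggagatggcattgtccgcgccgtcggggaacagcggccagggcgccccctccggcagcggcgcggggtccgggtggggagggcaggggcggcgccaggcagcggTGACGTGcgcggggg
A set of 5 motifs of activity- and hypoxia-linked factors were searched on both strands in the 250 bases before the start of each of 32851 promoter entries. They were the cyclic AMP response element TGACGTCA, its shorter form TGACG, the AP-1 site TGANTCA, the E-box CACGTG and the hypoxia response core ACGTG. The Slc16a1 promoter holds CACGTG 200 bases before the start, which contains ACGTG on both strands. In Slc16a3, TGACG lies 29 bases before the start and overlaps an ACGTG 27 bases before it, and a further ACGTG 14 bases before it lies outside the stretch shown. No match lies in these windows of Slc16a9, Slc16a10, Slc16a11 and Slc16a14. The start is that of the RefSeq promoter entry. The windows of Slc16a3 and Slc16a11 lie inside the annotated gene span, and those of Slc16a9, Slc16a10 and Slc16a14 reach into it. Bases before the first annotated start of Slc16a3 and Slc16a11 were not searched. Among all promoter entries, CACGTG occurred in 6.02%, ACGTG in 16.6%, TGACG in 17.8%, TGANTCA in 6.75% and TGACGTCA in 1.55%.

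The members moved in different directions after each injury. After kainic acid, the proton-linked carrier gene Slc16a1 was 6.66-fold higher than in KA control neurons and the aromatic amino acid carrier gene Slc16a10 was higher too, while Slc16a7, Slc16a9, Slc16a11 and Slc16a13 were lower. After OGD, Slc16a1 was lower than in OGD control neurons, and Slc16a7, Slc16a9 and Slc16a11 were higher. Slc16a6 and Slc16a14 passed the test in neither comparison. Of the 9 members, 8 had enough counts to be tested; Slc16a3 had not. Slc16a6 reached the filter level in 3 KA and 3 KA control libraries, but in 2 of 3 OGD and 1 of 3 OGD control libraries.

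In the fit over all 13139 tested genes, 4 of the 8 tested members were called after OGD, 3 higher and 1 lower, where 38.1% of all tested genes were called (17.6% higher and 20.5% lower). After kainic acid 6 were called, 2 higher and 4 lower, against a background of 72.7% (35.2% higher and 37.6% lower). Groups did not overlap in 4 members after OGD, where 49.0% of tested genes had this property, and in 6 after kainic acid, where 73.7% had it. These shares lie near the background and are no result about the family, so the genes are described one by one. Slc16a9 is among the 3 higher and the 4 without overlap after OGD. Its OGD values guided the list, so its call there is no test. The median log2 fold change of the tested members, Slc16a9 included, was 0.32 after OGD, against 0.01 over all tested genes. After kainic acid it was -0.22, against -0.02.

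**Figure D1:**
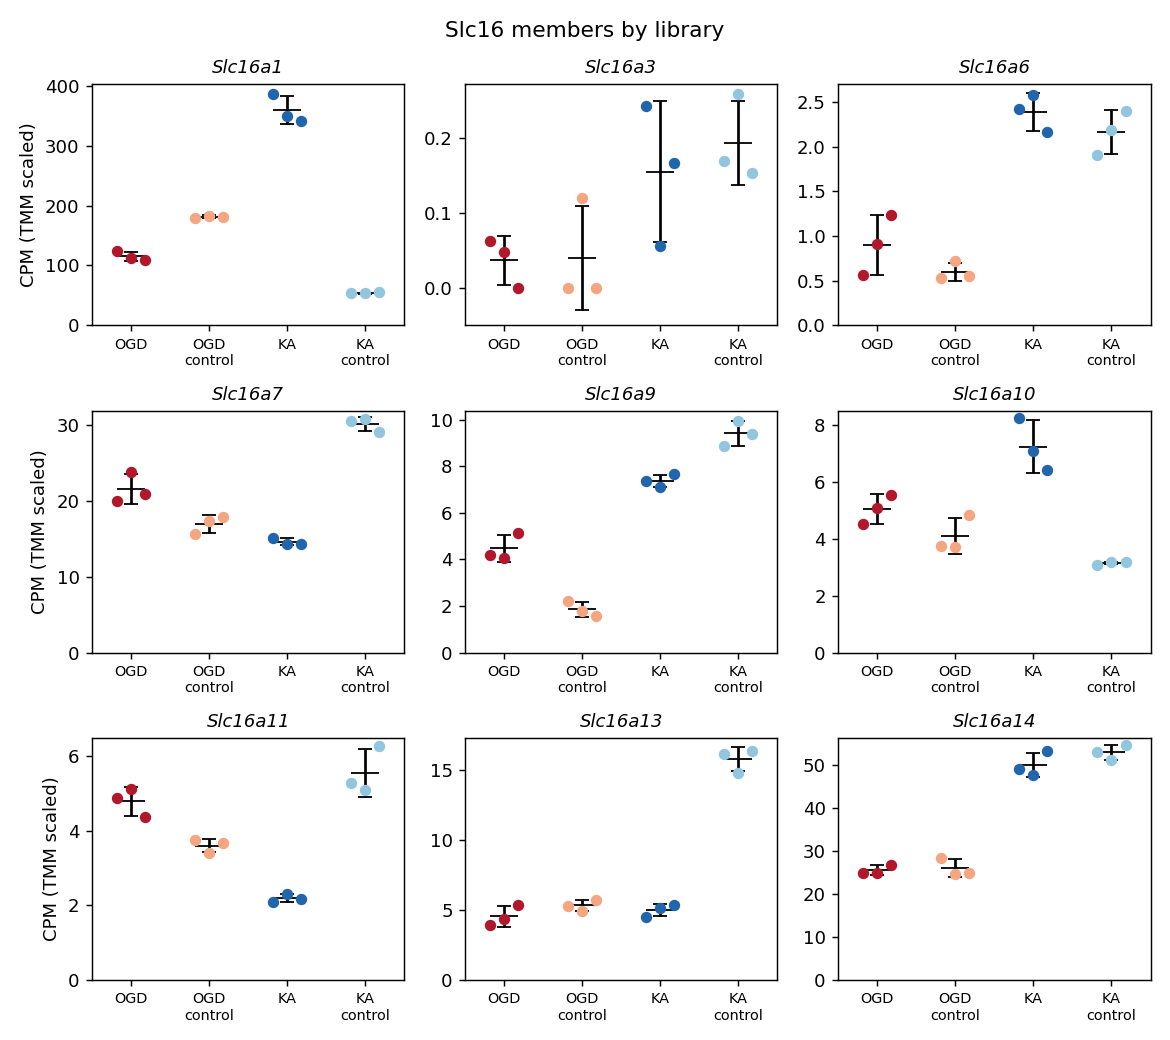
TMM-scaled CPM of each of the 9 members in every library (points), with the group mean and SD (n = 3), for OGD, OGD control, KA and KA control; each panel has its own linear axis. Slc16a1 lies at 341 to 387 CPM in the 3 KA libraries, above every other library, and Slc16a3 stays close to 0 in all 4 groups.

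Slc16a1 (chr3:104638668-104658462, plus strand; 1 annotated transcript) encodes MCT1, which carries lactate, pyruvate and ketone bodies in either direction. Its level was 387, 350 and 341 CPM in the KA libraries, against 53.4, 53.3 and 55.0 CPM in the KA control libraries. Every KA library stood far above every KA control library. The log2 fold change was 2.74 (SE 0.05), with an edgeR quasi-likelihood adjusted p of 2.88e-27, the 202nd largest increase among the tested genes. After OGD the level was 124, 113 and 109 CPM, against 179, 183 and 181 CPM in OGD control. The groups did not overlap, and the log2 fold change was -0.65 (SE 0.05; edgeR adjusted p = 4.36e-11). The responses to the injuries differed by 3.39 on the log2 scale, KA minus OGD (edgeR adjusted p = 9.09e-26). The untreated groups were themselves far apart, at 53.9 ± 0.95 CPM in KA control and 181 ± 2.39 CPM in OGD control (SD, n = 3 each). Set against KA control, the OGD libraries were higher by 1.09 on the log2 scale, the opposite direction to that against their own control. KA libraries were higher than either control group, by 0.99 on the log2 scale against OGD control.

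Markers of astrocytes moved in the same direction as Slc16a1 after both injuries, and tested markers of endothelium and microglia were called after kainic acid but not after OGD. The 10 astrocyte markers summed to 202 to 220 CPM in KA libraries and 79.3 to 80.8 CPM in KA control libraries, and 5 of the 8 that could be tested rose after kainic acid and none fell, where 35.2% of all tested genes were higher and 37.6% lower. In the OGD libraries they summed to 90.4 to 102 CPM, against 113 to 127 CPM in OGD control, with 3 of 8 lower and none higher, where 20.5% of all tested genes were lower and 17.6% higher. Thus the sums ranked the 4 groups in the same order as Slc16a1 did, but not every astrocyte marker did. Gja1 averaged 18.7 CPM in KA control and 16.2 CPM in OGD control, and Sox9 5.38 and 32.1 CPM. Of the 8 tested, 2 were higher and 3 lower in KA control than in OGD control. Among all tested genes, 34.5% were higher and 34.2% lower there. The order of the sums was not particular to astrocytes, since the endothelial sums had it too. Other lists did not: fibroblast and mural markers summed to 19.1 to 19.8 CPM in KA and 20.5 to 22.4 CPM in OGD control. Choroid plexus markers summed to 3.74 to 6.57 CPM in KA and 17.5 to 21.2 CPM in OGD control. Oligodendrocyte sums overlapped among OGD, OGD control and KA control. The 8 endothelial markers summed to 7.48 to 8.48 CPM in KA libraries and 3.86 to 4.61 CPM in KA control, and to 5.08 to 5.77 CPM in OGD libraries and 6.65 to 7.21 CPM in OGD control. All 3 endothelial markers that could be tested rose after kainic acid and none of the 3 was called after OGD. Of the 8, Emcn had no count in any library, and Pecam1, Cdh5, Cldn5 and Tek were too low to test. The 9 microglial markers summed to 9.40 to 12.7 CPM in KA libraries and 5.11 to 6.39 CPM in KA control, with 5 of 6 tested higher. After OGD their sums overlapped, at 5.33 to 6.38 CPM in OGD libraries and 4.51 to 6.74 CPM in OGD control, and none of the 6 was called. The part of these cells in the Slc16a1 values was not tested, and in bulk RNA fewer cells of a type and less RNA per cell cannot be told apart. The neuronal list itself summed to 8335 to 8907 CPM in KA libraries and 6285 to 6344 CPM in KA control. In OGD control it summed to 8064 to 8330 CPM and in OGD libraries to 7988 to 8196 CPM, which overlapped. KA libraries thus had the highest neuronal sums and KA control the lowest, as for Slc16a1.

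Slc16a7 (chr10:125219270-125389465, minus strand), the gene of the neuronal carrier MCT2, moved opposite to Slc16a1 in both injuries. It was at 15.1, 14.3 and 14.3 CPM in KA, against 30.5, 30.7 and 29.1 CPM in KA control. Every KA library lay below every KA control library, with a log2 fold change of -1.05 (SE 0.08; edgeR adjusted p = 3.35e-13). In OGD it was at 19.9, 23.7 and 20.9 CPM, against 15.6, 17.3 and 17.9 CPM in OGD control. The OGD libraries were all higher, by 0.35 on the log2 scale (SE 0.08; edgeR adjusted p = 0.00072). The responses differed by -1.39, KA minus OGD (edgeR adjusted p = 2.20e-12). Against KA control the OGD libraries were lower, by -0.48 on the log2 scale.

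The ratio of Slc16a1 counts to Slc16a7 counts within a library needs no scaling between libraries. It was 25.6, 24.4 and 23.9 in KA, against 1.75, 1.73 and 1.89 in KA control. It was 6.22, 4.76 and 5.21 in OGD, against 11.5, 10.6 and 10.1 in OGD control. Each injury group lay apart from its own control, above it after kainic acid and below it after OGD, and the 2 control groups lay further apart than OGD and OGD control did. These ratios use counts, not molecules, since the exons of Slc16a7 span 11839 bases and those of Slc16a1 span 4426.

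**Figure D2:**
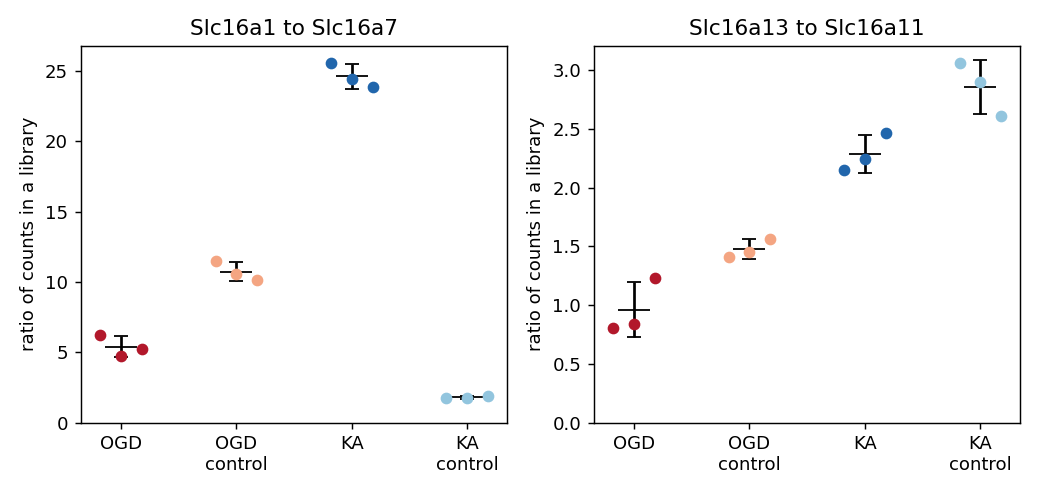
Ratios of counts within each library (points) with group mean and SD (n = 3), on linear axes that start at 0, for Slc16a1 to Slc16a7 and Slc16a13 to Slc16a11, in OGD, OGD control, KA and KA control. For Slc16a1 to Slc16a7, the KA libraries lie between 23.9 and 25.6 and the KA control libraries between 1.73 and 1.89.

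Slc16a3 (chr11:120948480-120960868, plus strand), which encodes the lactate export carrier MCT4 and is known as a hypoxia-induced gene, was near the limit of detection. Its counts were 1, 1 and 0 in OGD, against 0, 2 and 0 in OGD control. They were 3, 1 and 2 in KA, against 3, 6 and 3 in KA control. It held 22 counts over 12 libraries, too few for a test, and a change was not detectable with these counts. A total of 3 counts, the limit that a count of 0 allows, correspond to 0.129 to 0.249 CPM depending on the library, covering counting error only.

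Slc16a9 (chr10:70245100-70285968, plus strand) encodes MCT9, linked to carnitine export. It had the largest log2 fold change of the tested members after OGD, a value that was known when the list was made. It was at 4.20, 4.08 and 5.15 CPM in OGD, against 2.22, 1.79 and 1.59 CPM in OGD control. The libraries did not overlap, and the log2 fold change was 1.27 (SE 0.17), the 17th largest increase among all tested genes, a rank given as description. In KA it was at 7.35, 7.13 and 7.65 CPM, against 8.88, 9.96 and 9.40 CPM in KA control, again without overlap but in the other direction, at -0.36 on the log2 scale (SE 0.11; edgeR adjusted p = 0.00347). The OGD control level of 1.87 ± 0.32 CPM was the lowest of the 4 groups, and the OGD libraries lay below both KA and KA control. The log2 fold change of OGD against KA control was -1.08, so the direction of the OGD value depends on which untreated group it is set against. The KA value turns as well, to a log2 fold change of 1.99 for KA against OGD control. The 3 genes with the pattern most like Slc16a9 over the 12 libraries, by Pearson r of log2 CPM, were Stx6 (r = 0.981), Crhr1 (r = 0.971) and Eif2b5 (r = 0.965). For Slc16a1 they included Rap2a (r = 0.998) and Nptx2 (r = 0.997). These correlations are descriptions over libraries that fall into 4 groups.

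Slc16a10 (chr10:40033532-40142258, minus strand) encodes TAT1, which carries aromatic amino acids and, as MCT10, thyroid hormone. It was at 8.24, 7.07 and 6.40 CPM in KA, against 3.09, 3.18 and 3.17 CPM in KA control. All KA libraries were above all KA control libraries, with a log2 fold change of 1.20 (SE 0.14; edgeR adjusted p = 5.07e-09). In OGD it was at 4.51, 5.08 and 5.54 CPM, against 3.74, 3.70 and 4.83 CPM in OGD control. These groups overlapped and the log2 fold change of 0.30 (SE 0.14) was not called (edgeR adjusted p = 0.0951), although it was without OGD control replicate 3 (0.44, adjusted p = 0.0328). The responses differed by 0.90, KA minus OGD (edgeR adjusted p = 0.000226).

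Slc16a11 and Slc16a13 are neighbours on chromosome 11, at chr11:70212752-70216417 on the plus strand and chr11:70216789-70221064 on the minus strand, with their 3′ ends 371 bases apart. Slc16a11 encodes MCT11, reported as a pyruvate carrier; Slc16a13 encodes MCT13, for which lactate transport has been reported. Since the libraries are unstranded, reads that run past the end of one gene could not be assigned by strand. Both genes were lower after kainic acid. Slc16a13 was at 4.52, 5.16 and 5.32 CPM in KA, against 16.2, 14.8 and 16.4 CPM in KA control. Slc16a11 was at 2.10, 2.30 and 2.16 CPM in KA, against 5.28, 5.11 and 6.29 CPM in KA control. Neither gene's groups overlapped, and the log2 fold changes were -1.65 (SE 0.11; edgeR adjusted p = 2.75e-14) for Slc16a13 and -1.33 (SE 0.15; edgeR adjusted p = 5.32e-09) for Slc16a11.

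After OGD the pair separated. Slc16a11 was at 4.89, 5.13 and 4.37 CPM in OGD, against 3.74, 3.40 and 3.67 CPM in OGD control, with no overlap and a log2 fold change of 0.42 (SE 0.14; edgeR adjusted p = 0.0179). The call was lost with DESeq2 (adjusted p = 0.0755). It was also lost when replicate 2 of either group was left out, with an edgeR adjusted p of 0.0810 for the OGD library and 0.0757 for the OGD control library. Slc16a13 was at 3.95, 4.31 and 5.37 CPM in OGD, against 5.27, 4.95 and 5.74 CPM in OGD control. Those libraries overlapped and its log2 fold change of -0.23 (SE 0.13) was not called (edgeR adjusted p = 0.195). The ratio of Slc16a13 counts to Slc16a11 counts was 0.96 ± 0.24 in OGD, against 1.48 ± 0.08 in OGD control, and 2.29 ± 0.16 in KA, against 2.86 ± 0.23 in KA control (SD, n = 3 each). The libraries of OGD and OGD control did not overlap in this ratio, nor did those of KA and KA control. The KA level of Slc16a13 was close to that of OGD control: the log2 fold change between them was -0.08 (edgeR adjusted p = 0.625), so the fall after kainic acid is seen only against the higher KA control.

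Slc16a14 and Slc16a6 were called in neither injury. Slc16a14 (chr1:84905898-84935134, minus strand) encodes MCT14, a carrier with no settled substrate. It was at 49.0, 47.7 and 53.1 CPM in KA, against 52.8, 51.1 and 54.6 CPM in KA control, a log2 fold change of -0.09 (SE 0.06; edgeR adjusted p = 0.186). In OGD it was at 24.8, 24.9 and 26.8 CPM, against 28.3, 24.5 and 24.9 CPM in OGD control, a log2 fold change of -0.02 (SE 0.07; edgeR adjusted p = 0.871). Its libraries thus split by experiment and overlapped between injury and control. Slc16a6 (chr11:109450855-109473598, minus strand) encodes MCT7, linked in zebrafish liver to ketone body export. It was at 2.42, 2.58 and 2.16 CPM in KA, against 1.91, 2.19 and 2.40 CPM in KA control, a log2 fold change of 0.15 (SE 0.19; edgeR adjusted p = 0.498). In OGD it was at 0.56, 0.91 and 1.23 CPM, against 0.53, 0.72 and 0.55 CPM in OGD control, a log2 fold change of 0.59 (SE 0.33; edgeR adjusted p = 0.161). Both pairs of groups overlapped. The gene overlaps Amz2 and Arsg on the other strand, so its few reads cannot be assigned to it with certainty.

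**Figure D3:**
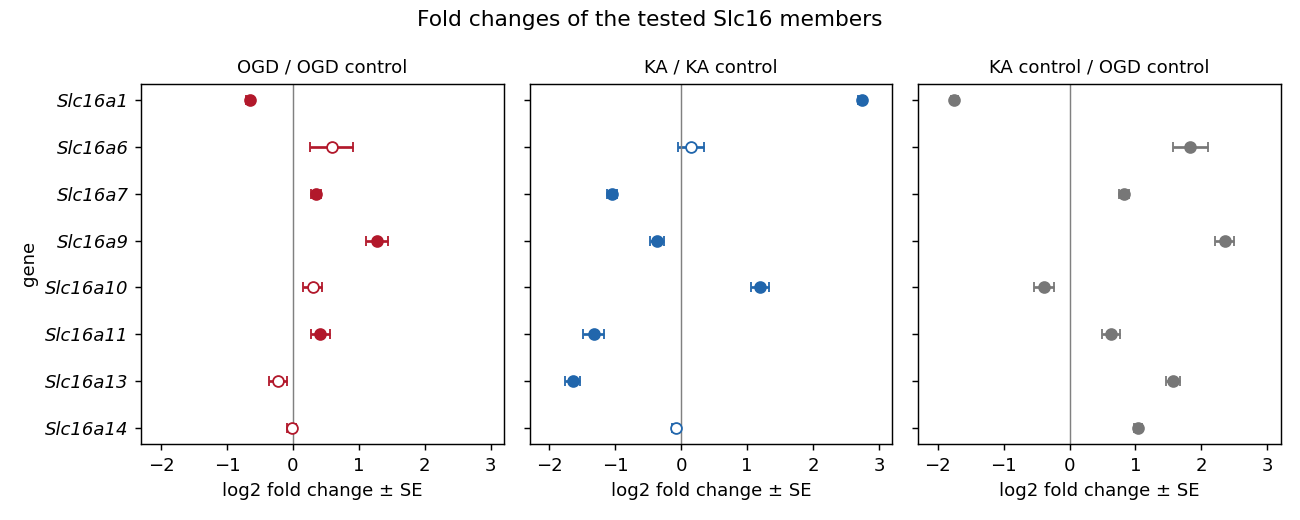
Log2 fold changes of the 8 tested members with their SE, for each injury against its own control and for KA control against OGD control; filled points passed the test at an adjusted p under 0.05 and open points did not. Slc16a1, Slc16a7, Slc16a9 and Slc16a11 lie on opposite sides of 0 in the 2 injuries, and all 8 points are filled between the controls. The Slc16a9 points that use OGD control libraries are descriptions, since its OGD values guided the list.

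The test of the difference between the injuries, KA minus OGD, called 6 of the 8 tested members, 2 positive and 4 negative, where 68.2% of tested genes were called (33.8% positive and 34.4% negative). Slc16a9 is among the 6, and its OGD values, which guided the list, enter that difference, so its call is no test. Slc16a11 had the most negative difference, at -1.75 (edgeR adjusted p = 1.31e-08), and that of Slc16a13 was -1.42 (edgeR adjusted p = 2.69e-08). The difference of Slc16a9 was -1.64. For Slc16a6 it was -0.44 and for Slc16a14 -0.07, both not called (edgeR adjusted p = 0.310 and 0.517). Members on opposite sides of 0 after each injury were thus Slc16a1, positive after kainic acid, and Slc16a7, Slc16a9 and Slc16a11, positive after OGD.

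**Figure D4:**
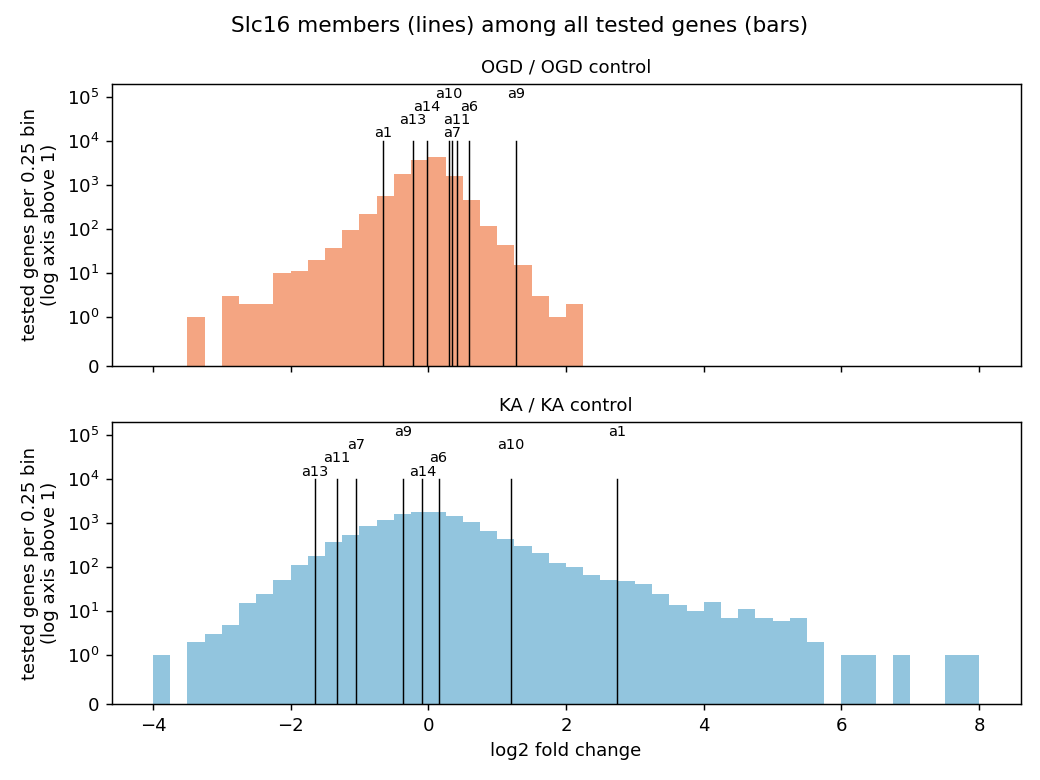
Histogram of log2 fold changes of the 13139 tested genes (log count axis above 1), with lines at the 8 tested members, labelled a1 to a14 for Slc16a1 to Slc16a14; OGD against OGD control above, KA against KA control below. Slc16a9 lies far into the upper tail after OGD at 1.27, and Slc16a1 after kainic acid at 2.74. The Slc16a9 value after OGD was known when the list was made.

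The untreated groups of the experiments differed in every tested member. KA control was higher than OGD control in 6 of the 8 and lower in Slc16a1 and Slc16a10, where 68.7% of tested genes were called (34.5% higher and 34.2% lower). The libraries of these groups did not overlap in any of the 8, against 73.0% of tested genes. Slc16a9 is among the 8, and its OGD control values entered the change that guided the list, so its call here is no test. Log2 differences, KA control against OGD control, were -1.75 for Slc16a1, 2.36 for Slc16a9, 1.83 for Slc16a6, 1.56 for Slc16a13, 1.04 for Slc16a14, 0.82 for Slc16a7 and 0.62 for Slc16a11. That of Slc16a10 was -0.38 (edgeR adjusted p = 0.0274), and this call was lost with DESeq2 (adjusted p = 0.0604) and without KA control replicate 1, 2 or 3 (0.0580, 0.0551 and 0.0514) or OGD control replicate 3 (0.224). Experiment and control group cannot be told apart, and the comparisons share these control libraries. Set against the other experiment's control, 7 of the 8 tested members were called for OGD, 2 higher and 5 lower, where 67.3% of tested genes were called (33.2% higher and 34.1% lower). For KA it was also 7, with 5 higher and 2 lower, against 57.6% (29.3% higher and 28.3% lower). Slc16a9 is counted in both, and its OGD or OGD control values enter each, so its calls there are no test. Slc16a1 and Slc16a10 were higher in KA libraries than in either control, and Slc16a7 and Slc16a11 were lower than in either.

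Levels of different genes were compared per kilobase of exons. This corrects for length but not for how completely each gene was counted, so the order is one of counted reads. Slc16a1 led the listed members in 3 of the 4 groups. It was at 26.0 ± 1.77 CPM per kb in OGD and 40.9 ± 0.54 in OGD control, and at 81.1 ± 5.44 in KA. In KA control it was second, at 12.2 ± 0.21 CPM per kb, behind Slc16a14 at 15.8 ± 0.52 (SD, n = 3 each); their libraries did not overlap. Slc16a14 was second in the other groups, at 7.60 ± 0.34 CPM per kb in OGD, 7.72 ± 0.62 in OGD control and 14.9 ± 0.84 in KA. The middle of the order was not resolved in OGD, where Slc16a11, Slc16a7 and Slc16a13, at 1.88, 1.82 and 1.75 CPM per kb, overlapped. Slc16a13 came next after Slc16a14 and Slc16a1 in OGD control, KA and KA control, at 2.05, 1.92 and 6.07 CPM per kb, though in KA its libraries overlapped those of Slc16a9, at 1.91. The level of Slc16a7 was 1.82 CPM per kb in OGD, 1.43 in OGD control, 1.23 in KA and 2.54 in KA control, below Slc16a14 throughout. Slc16a3 was last in every group, at 0.00693 to 0.0363 CPM per kb.

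**Figure D5:**
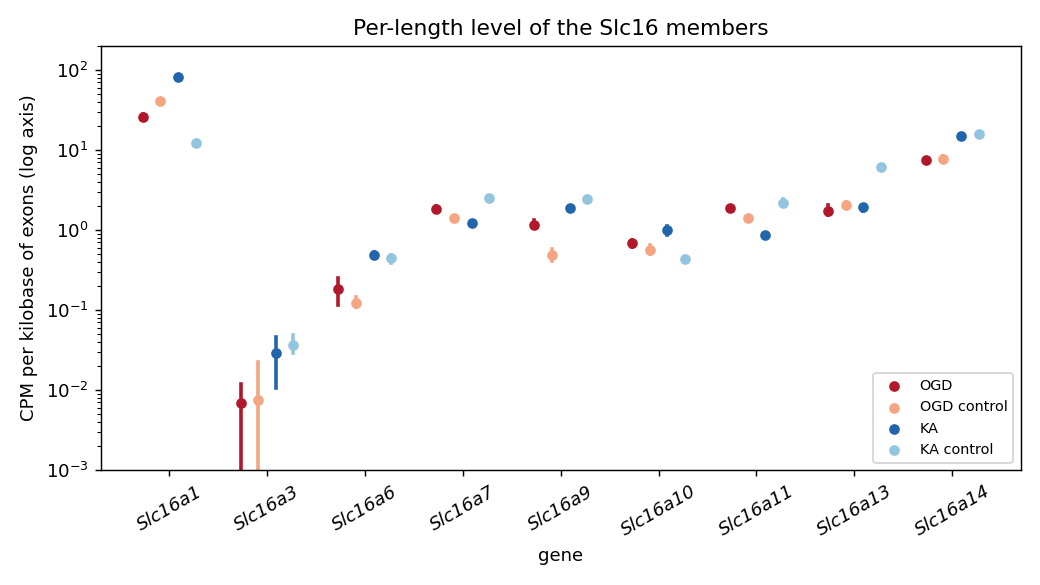
Level of each member in CPM per kb of annotated exons, on a log axis, for OGD, OGD control, KA and KA control (points, group means; lines, lowest to highest library). Slc16a1 and Slc16a14 lie above the others in all 4 groups, and Slc16a3 libraries with no count lie at the floor of the axis.

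Genes that work with the transporters were followed as lists chosen for known function. Of the ancillary glycoproteins that bring monocarboxylate transporters to the cell surface, Bsg, Emb and Nptn, all 3 rose after kainic acid and none was called after OGD. Over all tested genes, 72.7% were called and 35.2% were higher after kainic acid, and 38.1% were called after OGD. Bsg, the partner of MCT1 and MCT4, averaged 13.1 ± 1.19 CPM in KA libraries and 8.02 ± 0.93 CPM in KA control libraries (log2 fold change 0.72, SE 0.10; edgeR adjusted p = 2.92e-07). Emb, a partner of MCT2, had a log2 fold change of 0.46 (edgeR adjusted p = 0.000303), and Nptn one of 0.39 (edgeR adjusted p = 1.58e-09). After OGD, Bsg was at 0.20 (edgeR adjusted p = 0.110) and Nptn at -0.06 (0.299). KA control was lower than OGD control in Bsg and Nptn (log2 difference -0.45 and -0.37) and higher in Emb (0.45). Nptn averaged 496 CPM in KA and 491 CPM in OGD control, Bsg 13.1 and 11.0 CPM, and Emb 12.2 and 6.45 CPM. The rise of Emb and Bsg after kainic acid stood beside a rise of Slc16a1 and a fall of Slc16a7. The median log2 fold change of this list was 0.46 after kainic acid, against -0.02 over all genes.

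Of the 4 tested genes of lactate and pyruvate handling, 2 rose after OGD and none fell, near the 38.1% of all tested genes that were called. These were Ldha, the muscle-type lactate dehydrogenase subunit (log2 fold change 0.85, edgeR adjusted p = 0.0313), and Mpc2, a subunit of the mitochondrial pyruvate carrier (0.13, edgeR adjusted p = 0.0434). Ldha was close to the counting limit, at 1.39 ± 0.30 CPM in OGD libraries and 0.75 ± 0.06 CPM in OGD control libraries, and DESeq2 called neither. After kainic acid 3 of 4 rose and none fell, where 72.7% of all tested genes were called and 35.2% were higher: Mpc1 (0.43, edgeR adjusted p = 5.42e-09), Ldhb, the heart-type subunit (0.38, edgeR adjusted p = 1.60e-08), and Mpc2 (0.13, edgeR adjusted p = 0.0320). These rises are against KA control. Mpc1 averaged 134 CPM in KA and 132 CPM in OGD control, Ldhb 250 and 325 CPM, and Mpc2 73.9 and 89.0 CPM. In the ketone body list, 2 of 4 rose after OGD, among them Acat1 (0.20, edgeR adjusted p = 0.00125), and none fell, again near the 38.1% called over all tested genes. After kainic acid 3 of 4 were called, near the 72.7% of all tested genes. Of these 1 rose, Oxct1 (0.24, edgeR adjusted p = 4.79e-06), and 2 fell, Bdh1 (-0.40, edgeR adjusted p = 0.000125) and Acat1 (-0.15, edgeR adjusted p = 0.00537). Oxct1 averaged 978 CPM in KA and 1088 CPM in OGD control, Acat1 317 and 312 CPM, and Bdh1 16.3 and 20.7 CPM.

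Genes of thyroid hormone and aromatic amino acid handling, the cargo of Slc16a10, rose in 6 of 8 tested after kainic acid and none fell, where 72.7% of all tested genes were called and 35.2% were higher. Slc7a8, a neutral amino acid exchanger, had a log2 fold change of 1.50 (edgeR adjusted p = 9.93e-22), and Thra, a thyroid hormone receptor, one of 0.58 (edgeR adjusted p = 7.53e-13). Dio2, which activates thyroid hormone, was at 6.49 ± 0.26 CPM in KA libraries and 1.05 ± 0.29 CPM in KA control libraries (2.59, SE 0.18; edgeR adjusted p = 1.04e-13). After OGD none of the 8 rose and 3 fell, where 38.1% of all tested genes were called and 20.5% were lower: Slc7a8 (-0.18, edgeR adjusted p = 0.00432), Dio2 (-0.61, edgeR adjusted p = 0.00905) and Dio3, which inactivates the hormone (-0.33, edgeR adjusted p = 0.0341). Dio2 is known from astrocytes, and the astrocyte marker sums given above moved in the same direction; their part was not tested. The list's median was 0.31 after kainic acid and -0.14 after OGD. The falls after OGD are against OGD control. Slc7a8 averaged 184 CPM in OGD and 125 CPM in KA control, Dio2 2.13 and 1.05 CPM, and Dio3 4.57 and 5.17 CPM.

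Of the 10 carnitine and creatine genes, cargo linked to Slc16a9 and its relatives, 5 rose and 2 fell after OGD, where 38.1% of all tested genes were called. Gatm, the first enzyme of creatine synthesis, had a log2 fold change of 0.52 (edgeR adjusted p = 2.30e-07). Slc22a5, the carnitine importer, had one of 0.38 (edgeR adjusted p = 2.71e-05), and Slc25a20, the mitochondrial carnitine carrier, one of 0.29 (edgeR adjusted p = 0.00208). After kainic acid 3 rose and 4 fell, a share called near the 72.7% of all tested genes, with Gatm at -1.15 (edgeR adjusted p = 3.97e-16), the creatine importer Slc6a8 at 1.37 (edgeR adjusted p = 1.57e-08) and Cpt1a at 1.21 (edgeR adjusted p = 1.92e-08). Gatm, like Slc16a9, was higher after OGD and lower after kainic acid, each against its own control. Its mean KA level of 31.3 CPM was close to the 32.7 CPM of OGD control, while KA control stood at 69.6 CPM. Slc22a5, unlike Slc16a9, rose after kainic acid as well (0.43, edgeR adjusted p = 3.17e-07). Slc25a20 was not called after kainic acid (-0.09, edgeR adjusted p = 0.287).

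Hypoxia-induced metabolic genes, the group to which Slc16a3 is usually counted, rose in 6 of 11 tested after OGD and none fell, where 38.1% of all tested genes were called and 17.6% were higher. Hk2, a hexokinase, had a log2 fold change of 0.85 (edgeR adjusted p = 9.94e-07). P4ha1, a collagen prolyl hydroxylase, had one of 0.62 (edgeR adjusted p = 1.76e-09), and Pdk1, which restrains pyruvate entry into mitochondria, one of 0.55 (edgeR adjusted p = 3.04e-08). These rises are against OGD control. Hk2 averaged 21.2 CPM in OGD and 48.4 CPM in KA control, Pdk1 72.0 and 90.7 CPM, and P4ha1 103 and 62.1 CPM. Slc16a3 itself stayed at 0 to 2 counts in the OGD and OGD control libraries. After kainic acid 7 rose and 4 fell, where 72.7% of all tested genes were called, with the glucose carrier Slc2a1 at 1.71 (edgeR adjusted p = 2.21e-18), Adm at 2.31 (edgeR adjusted p = 1.03e-14) and P4ha1 at 0.92 (edgeR adjusted p = 1.02e-14).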

How the data were processed

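Counts of reads per gene symbol were used as deposited, whole numbers that the authors left unscaled, in 12 libraries of primary mouse neurons. Per the labels' protocols, an RNeasy kit gave the RNA and an unstranded TruSeq RNA kit the libraries. Tools named in the submitters' processing notes are bcl2fastq 1.8.4, TopHat 1.4.1 and HTSeq 0.6.1, with build mm10; their settings and the gene annotation are not given in the sources. Columns headed OGT were taken as the OGD samples, a match by name with 1 letter different.

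The tests used edgeR 4.0.16 under R 4.3.3: filterByExpr (minimum count 10, minimum total 15), TMM scaling and 1 quasi-likelihood fit of the 12 libraries with a mean for each of 4 groups, leaving 8 residual degrees of freedom. P-values were adjusted by Benjamini-Hochberg over the 13139 tested genes and called under 0.05. "Rose" and "fell" are used only of called genes. Levels are CPM scaled by TMM, as mean ± SD of 3 libraries. Exon lengths and coordinates came from GENCODE M21 on the same build, and 21553 of 22899 symbols matched; promoters are RefSeq entries on GRCm38.p6. Pattern likeness was the Pearson r of log2 CPM with a prior count of 2. DESeq2 1.42.0 was an alternative. The test was checked on simulated data.

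The members and gene lists were chosen with earlier results of these data known. All 9 members are named; from each list, up to 3 called genes with the smallest adjusted p per injury are named, or up to 2 where none was called. A few genes that this rule names are not reported here. Replicates of a group differed by more than counting noise, so none was treated as a duplicate. Same-numbered replicates deviated together with a correlation of 0.03 to 0.05 in the OGD experiment and -0.05 to -0.04 in the KA experiment, so they were not paired.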

Additional observations from a re-analysis of the deposited data

Results flagged for a closer look

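The response to kainic acid and the response to OGD, each against its own control, differed by the edgeR test of the difference over all genes in Slc16a1, Slc16a7, Slc16a10, Slc16a11 and Slc16a13, where 68.2% of tested genes were called. The value of Slc16a9 is given as a description with no test, since its OGD values guided the choice of members. On the log2 scale, KA response minus OGD response, the difference was 3.39 for Slc16a1 and 0.90 for Slc16a10. It was -1.75 for Slc16a11, -1.64 for Slc16a9, -1.42 for Slc16a13 and -1.39 for Slc16a7. The untreated groups differ in these members as well, and experiment and injury cannot be told apart in the levels that the responses start from.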

How the results depend on the processing

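Over 588 single-member results with the own control, 576 kept their direction and their side of the threshold, 8 lost a call, 1 gained one and 3 reversed. The reversals were all Slc16a14 after OGD, which was never called; its log2 fold change ran between -0.0544 and 0.0443 when libraries were left out one at a time (0.0018, 0.0016 and 0.0443 in the reversed fits). With libraries left out, 1 to 2 members were called lower in KA control than in OGD control.

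With the other experiment's control, 8844 genes were called after OGD (4363 higher, 4481 lower), with 7 members called and 5 of them lower, and after kainic acid 5 members were higher and 2 lower. Log2 fold changes then reversed for Slc16a1 (1.09), Slc16a6 (-1.24), Slc16a7 (-0.48), Slc16a9 (-1.08) and Slc16a11 (-0.21) after OGD, and for Slc16a9 (1.99) and Slc16a14 (0.95) after kainic acid. That setting mixes injury with experiment. With only genes of 1 annotated transcript, fewer genes were tested. Calls were then 3224 after OGD (1513 higher, 1711 lower), 5784 after kainic acid (2742 higher, 3042 lower), 5452 for the difference (2654 positive, 2798 negative) and 5521 between the controls (2812 higher, 2709 lower). Members called higher were then 1 after kainic acid and 1 for the difference, and 5 members were called between the controls, 1 of them lower. Slc16a6, Slc16a7 and Slc16a10 have 2 or 3 curated RefSeq transcripts and were not in that fit, so they could not enter these counts. With DESeq2, 1 member was called lower between the controls, 0 lactate and pyruvate genes were called higher after OGD, and 1 carnitine and creatine gene was called lower after OGD; the cause was not tested. With the longest transcript as length, 4 of 9 members kept their place in the KA control order.

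With the replicate number as a block, 4779 genes were called after OGD, 9468 after kainic acid, 8844 for the difference and 8912 between the controls. In the OGD experiment each library correlated best with its own number, a hint from the data and not the design; in the KA experiment none did. A fit of only the groups compared gives no value for the difference. Low counts limit Slc16a3 and Slc16a6 most: a change in Slc16a3 was not detectable. Whether its reads were fully counted was not tested.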
